A study of Mus musculus with 8 samples.

Results

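Lipid-associated macrophages are macrophages that take up and break down lipid, first described in adipose tissue and since found in tumors, plaques and damaged tissue. Their program is built around TREM2, a surface receptor for lipids and lipoproteins that signals through the adaptor DAP12, and it comprises lysosomal and lipid-handling genes together with the secreted phosphoprotein osteopontin. Macrophages of this kind are known among tumor-associated macrophages (TAMs), where Spp1 and Trem2 are widely used to recognize them. In these libraries, 10 genes of the program were followed by their symbols in the deposited tables: Spp1, Trem2, Tyrobp, Gpnmb, Fabp5, Lgals3, Cd9, Cd63, Lpl and Plin2. These are 10 of the 21051 genes listed, and all 10 were among the 12412 genes that passed the filter on low counts and were tested.

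RNA was sequenced from TAMs, isolated by flow sorting for CD45 and F4/80, of B16 melanomas 14 days after the tumor cells were injected s.c. The host mice were WT (TAM-WT, n = 4) or Colec11-/- (TAM-KO, n = 4), on the C57BL/6 strain, and the controls were littermates of the knockouts. Male mice of 8 to 10 weeks were used. The deletion is germline, so every cell of the host lacks collectin-11, a soluble C-type lectin, while B16, a pigmented mouse melanoma line, is of host strain and keeps its own genes. The comparison asks how the TAMs differ when the host makes no collectin-11. Counts are RSEM expected counts and levels are FPKM, fragments scaled to transcript length and to the mapped reads of the library.

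The 7 libraries with a full table held 16225362 to 17280267 reads on genes. The table of TAM-KO replicate 1 lacks 5311 genes, so its total was not known. Of the 10 genes, Spp1, Trem2, Tyrobp and Gpnmb were tested on 4 TAM-KO libraries and the other 6 on TAM-KO replicates 2 to 4. For Fabp5, Lgals3 and Cd9, the level of TAM-KO replicate 1 was taken from the deposited table of differential genes, which is a selection by outcome. It entered the mean FPKM, the overlap of the groups and the ratios to Tyrobp, but not the edgeR test. For Cd63, Lpl and Plin2 no value of that library was used. Macrophage markers were abundant in every library with a value (C1qa 1613 to 2161 FPKM), but melanoma RNA was also present throughout (Pmel 530 to 1478 FPKM), and both are given with their lists further on.

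Spp1, Trem2, Fabp5, Cd9 and Cd63 were lower in TAM-KO, and none of the 10 genes was higher. The 5 genes called lower out of 10 stand beside 5.24% of all tested genes called lower, and the 0 called higher (also 0 by DESeq2 and 0 at an unadjusted p under 0.05) beside 4.58%. A call is an adjusted p of at most 0.05 in edgeR's quasi-likelihood test with Benjamini-Hochberg adjustment over all 12412 genes. Far more of all tested genes lay under an unadjusted p of 0.05 than were called, and that share was not counted. Counts at that p, here and for each list, are therefore a description only. DESeq2 called 1172 of all tested genes lower and 1081 higher, and its counts for each list stand beside these. Spp1 and Cd9 also fell at least 2-fold, 2 of 10 against 1.12% of all tested genes. The log2 fold change of TAM-KO against TAM-WT was negative for 9 of the 10 genes, with a median of -0.70, where the median over all tested genes was 0.0016. The FPKM of both groups did not overlap, with TAM-KO lower, for Spp1, Fabp5, Lgals3, Cd9 and Cd63, that is 5 of 10 against 5.41% of all tested genes. In bulk RNA, fewer cells of this kind and less of these transcripts per cell cannot be told apart.

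The number of genes called turned on single libraries. With replicate 2 or 3 of TAM-KO, or replicate 3 of TAM-WT, left out, 0 of the 10 were called by edgeR, while 6 had an unadjusted p under 0.05 each time and 9 kept a negative fold change. Calls over all tested genes dropped in the same fits, from 1218 to 77, 77 and 151. The share of all tested genes under an unadjusted p of 0.05 was not counted in these fits. Without TAM-WT replicate 4, 2 of the 10 were called, and without TAM-KO replicate 1, 3 were. Fabp5 and Cd63, lost in the latter fit, were not tested on TAM-KO replicate 1, so only their adjustment had changed. DESeq2 called 6 lower with all libraries, beside 9.44% of all tested genes. Of all calls, 53.4% were lower in TAM-KO, and 35.6% when libraries were scaled to total reads, a choice that shifted the median log2 fold change of all genes to 0.089. On that scale the number of the 10 genes called lower was again 5, beside 3.87% of all tested genes.

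**Figure D1:**
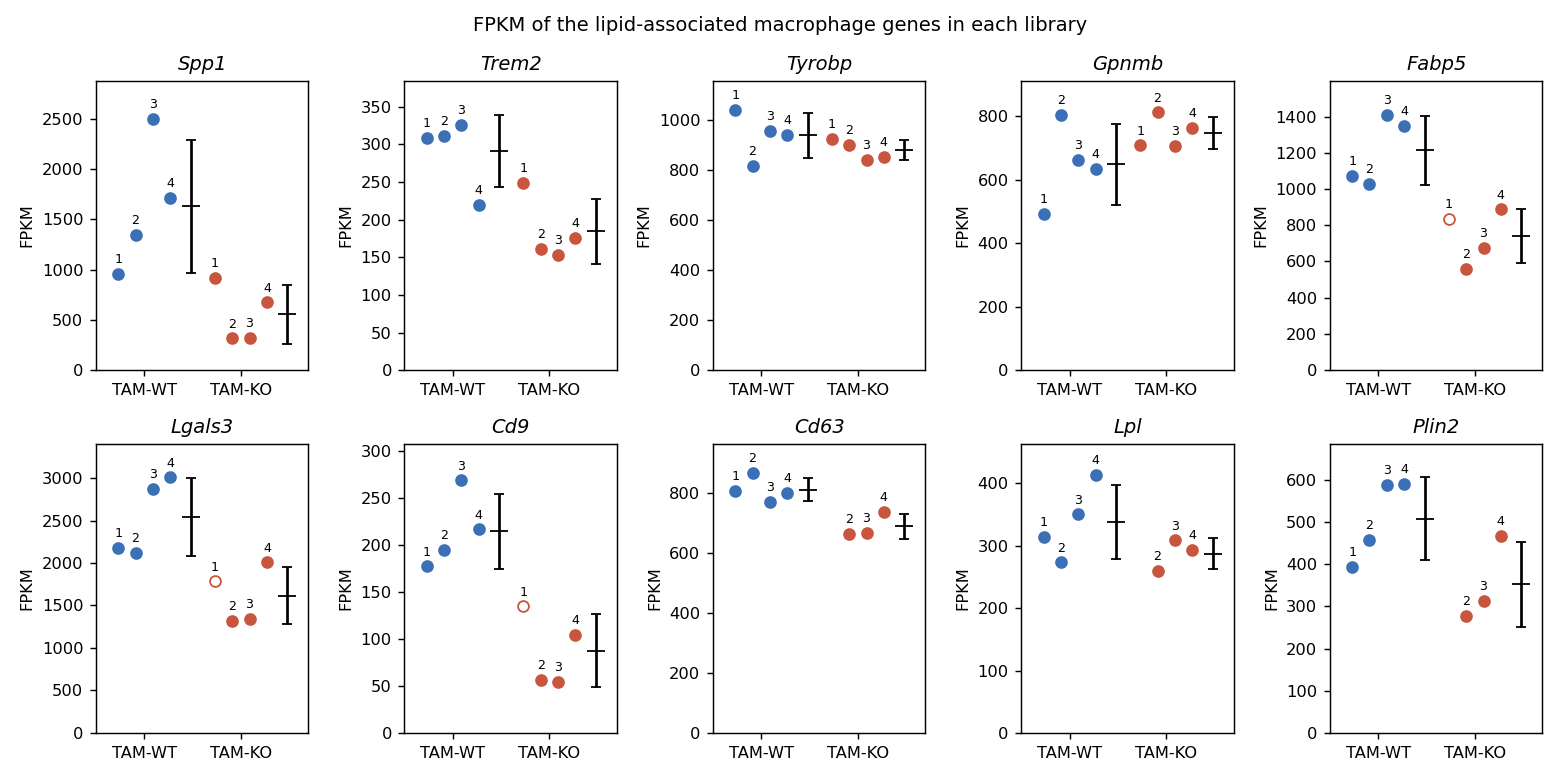
FPKM (linear axis from 0) of each gene in each library, blue for TAM-WT and red for TAM-KO, with the replicate number over each point and the mean and SD as a black bar beside each group. Open points are TAM-KO replicate 1 taken from the table of differential genes, and Cd63, Lpl and Plin2 have no point for that library. TAM-KO replicates 2 and 3 hold the lowest value of 8 of the 10 genes, and TAM-WT replicates 3 and 4 hold the highest of 7.

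**Figure D2:**
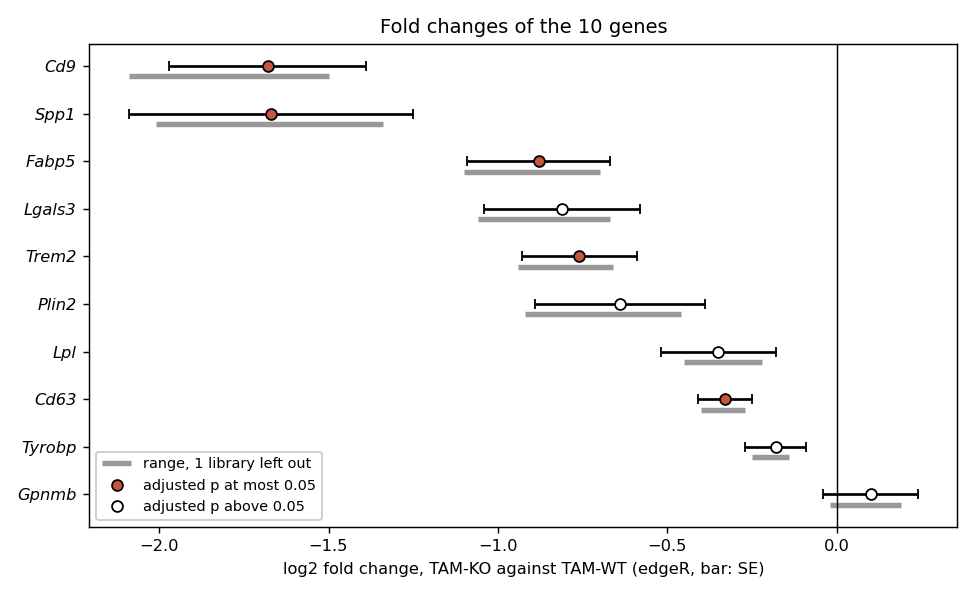
Log2 fold change of TAM-KO against TAM-WT for the 10 genes, with the SE from edgeR as a bar, filled where the adjusted p was at most 0.05. The gray line under each gene spans the 8 fits that leave out 1 library. Cd9 (-1.68) and Spp1 (-1.67) lie lowest, and the gray line of Gpnmb alone crosses 0.

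By FPKM, which is scaled for gene length, the order in TAM-WT was Lgals3, Spp1, Fabp5, Tyrobp, Cd63, Gpnmb, Plin2, Lpl, Trem2 and Cd9, from 2542 down to 215 FPKM on average. Neighbors in this order had overlapping ranges in every case. Even so, in 4 of 4 libraries Lgals3 was above Spp1, Fabp5 above Tyrobp, Cd63 above Gpnmb, Gpnmb above Plin2, Plin2 above Lpl, and Trem2 above Cd9. The remaining neighbors were in order in 3 of 4. In TAM-KO, Lgals3 (1615 FPKM) and Cd9 (87.6 FPKM) kept the ends of the order. By mean, Spp1 was in the 2nd place in TAM-WT and in the 6th in TAM-KO, where Tyrobp was 2nd and Gpnmb 3rd. The means of Cd63, Lpl and Plin2 lack TAM-KO replicate 1, and the place of Spp1 differed between libraries. In TAM-KO replicate 1 its 921 FPKM lay above Gpnmb (708 FPKM) and Fabp5 (837 FPKM), and in TAM-WT replicate 1 its 955 FPKM lay below Fabp5 (1075 FPKM) and Tyrobp (1038 FPKM). Gpnmb and Fabp5, next to each other in TAM-KO, were in that order in 2 of 4 libraries and could not be separated. Spread between libraries was uneven. For Spp1 the coefficient of variation was 40.5% among TAM-WT and 52.9% among TAM-KO libraries, whereas for Cd63 it was 4.87% and 5.94%.

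Promoters of 7 of the 10 genes were matched in RefSeq (GRCm38.p6), as windows of 250 bases before to 50 bases after the start. Tyrobp, Fabp5 and Lpl had none in the table used. The 250 bases before the start are printed for Spp1 and Trem2, which name the program, and for Cd9, 5′ to 3′ on the strand of the gene. In the main test the fold change of Cd9 was the most negative, close to that of Spp1, but its fit lacked TAM-KO replicate 1. Capitals mark the matches found by searching both strands.
Spp1, chr5:104434861-104435110, plus strand: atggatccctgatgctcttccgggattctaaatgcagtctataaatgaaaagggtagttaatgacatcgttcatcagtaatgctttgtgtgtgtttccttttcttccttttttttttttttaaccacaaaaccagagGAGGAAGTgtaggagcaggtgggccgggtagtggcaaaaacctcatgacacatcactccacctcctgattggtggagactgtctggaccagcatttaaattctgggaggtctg
Trem2, chr17:48346151-48346400, plus strand: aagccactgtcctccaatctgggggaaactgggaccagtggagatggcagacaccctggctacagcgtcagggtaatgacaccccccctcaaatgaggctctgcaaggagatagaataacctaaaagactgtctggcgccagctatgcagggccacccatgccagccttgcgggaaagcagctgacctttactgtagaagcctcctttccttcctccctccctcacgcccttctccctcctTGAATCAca
Cd9, chr6:125494761-125495010, minus strand: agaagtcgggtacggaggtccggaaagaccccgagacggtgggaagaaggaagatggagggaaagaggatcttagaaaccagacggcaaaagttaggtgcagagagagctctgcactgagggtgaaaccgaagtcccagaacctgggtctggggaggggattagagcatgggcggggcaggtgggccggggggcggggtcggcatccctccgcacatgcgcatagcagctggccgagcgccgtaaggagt
The words searched were GAGGAAGT (PU.1 type), TGANTCA (AP-1 type), TTGCNNAA (C/EBP type), CACGTG (E-box), ACGTG (its core, contained in it), and TCACGTGA and TCATGTGA (the MITF and TFE types, the former containing the E-box). Spp1 held GAGGAAGT beginning 113 bases before this start, a word found in 3.20% of all 32851 promoter windows. Its other annotated start held TTGCNNAA instead, found in 10.8% of windows. Trem2 held TGANTCA beginning 9 bases before its start and TTGCNNAA after it. TGANTCA, in 7.81% of windows, was also in the Gpnmb window, beginning at base 9 after the start. Plin2 held CACGTG, in 7.15% of windows, and Plin2 and Cd63 held ACGTG, in 19.6%. TCACGTGA (0.974% of windows) and TCATGTGA (0.986%) were in none of the windows, and Cd9 and Lgals3 held none of the 7 words. These are matches of letters only.

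Spp1 (NCBI gene 20750, GRCm38.p6 chr5:104435111-104441053, plus strand) encodes osteopontin, a secreted ligand of integrins and CD44. Its level was 955, 1344, 2504 and 1718 FPKM in TAM-WT replicates 1 to 4, and 921, 316, 319 and 675 FPKM in TAM-KO replicates 1 to 4. The groups did not overlap, although TAM-KO replicate 1 was just under TAM-WT replicate 1, and TAM-KO replicates 2 and 3 were lowest. The log2 fold change was -1.67 (SE 0.42), or 3.18-fold lower in TAM-KO, with an edgeR adjusted p of 0.0393. The adjusted p was 0.107 without TAM-WT replicate 3, 0.0773 without TAM-WT replicate 4, and 0.119, 0.113 and 0.0524 without TAM-KO replicates 2, 3 and 4, with the fold change between -1.34 and -1.79 in these fits. A transcript model without a known product, Gm42793, lies on the same strand over part of the gene.

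Of 9 genes for osteopontin receptors, all tested, edgeR called 2 higher and 0 lower, beside 4.58% and 5.24% of all tested genes. For so few genes, 0 lower is near that share. DESeq2 called 4 higher and 0 lower, and 4 and 0 passed at an unadjusted p under 0.05. The median log2 fold change of the 9 was 0.05. Itgav, the alpha V integrin chain, rose by 0.39 (SE 0.07, adjusted p = 0.0229), from 22.0 to 25.9 FPKM in TAM-WT to 30.4 to 36.6 FPKM in 3 TAM-KO libraries. Itga9, the alpha 9 chain, rose by 0.49 (SE 0.08, adjusted p = 0.0186). Neither was called with TAM-KO replicate 2, TAM-KO replicate 3, or replicate 3 of TAM-WT left out, with edgeR adjusted p from 0.0545 to 0.0896. Cd44, the hyaluronan and osteopontin receptor, was at 145 to 167 FPKM in TAM-WT and 179 to 211 FPKM in 3 TAM-KO libraries, and did not pass (log2 fold change 0.24, adjusted p = 0.111).

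Trem2 (NCBI gene 83433, chr17:48346401-48352276, plus strand) was at 308, 311, 325 and 220 FPKM in TAM-WT replicates 1 to 4. In TAM-KO replicates 1 to 4 it was at 248, 161, 153 and 175 FPKM. The groups overlapped, because TAM-WT replicate 4 lay below TAM-KO replicate 1, while the other 3 TAM-WT libraries lay above every TAM-KO library. Trem2 fell by 0.76 on the log2 scale (SE 0.17, edgeR adjusted p = 0.0308). Leaving out TAM-WT replicate 3 ended the call (adjusted p = 0.0904), and so did leaving out replicate 2 (0.107), 3 (0.0975) or 4 (0.0517) of TAM-KO.

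Tyrobp (NCBI gene 22177, chr7:30413782-30417582, plus strand) encodes DAP12, the adaptor that carries the TREM2 signal. It was at 816 to 1038 FPKM in TAM-WT and 839 to 922 FPKM in TAM-KO, with full overlap. Its log2 fold change was -0.18 (SE 0.09), with an edgeR adjusted p of 0.187, and it was called only without TAM-WT replicate 2 (0.0246) among the fits run. As Trem2 protein depends on DAP12 for signaling, each gene was also set against Tyrobp in its own library, a scale chosen after the values were seen. The ratio of Trem2 to Tyrobp was 0.313 (SD 0.0627) in TAM-WT and 0.209 (SD 0.0420) in TAM-KO (two-sided exact permutation p = 0.0571, n = 4 and 4, 0.103 adjusted over 9 genes). The ratio of Cd9 was the only one that did not overlap between groups, at the smallest p that 4 against 4 allows (exact permutation p = 0.0286, 0.103 adjusted). That value rests on TAM-KO replicate 1 from the table of differential genes, and 4 against 3 libraries could not go below 0.0571. None of the 9 ratios passed after adjustment.

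Of 16 genes of TREM2 and DAP12 signaling, all tested, edgeR called 1 lower and 0 higher, beside 5.24% and 4.58% of all tested genes. DESeq2 called 2 lower and 1 higher, and 6 and 1 passed at an unadjusted p under 0.05. The median log2 fold change was -0.02. Lat2, a membrane adaptor downstream of SYK, fell by 0.50 (SE 0.14, edgeR adjusted p = 0.0488). Its FPKM overlapped, with 98.0 to 131 in TAM-WT and 75.1 to 101 in TAM-KO, and it was called in 2 of the 8 fits that leave out a library. Syk, the kinase recruited by DAP12, was at 53.5 FPKM on average in TAM-WT and 50.8 in TAM-KO (log2 fold change -0.19, adjusted p = 0.364). Among 13 receptors that pair with DAP12 or a like adaptor, 12 were tested, with a median of 0.41. Of these, 2 rose and 1 fell, beside 4.58% and 5.24% of all tested genes. Treml4 rose by 0.68 (SE 0.18, adjusted p = 0.0433), with at most 9.16 FPKM in any TAM-WT library, up to 14.4 in TAM-KO, and no overlap. Sirpb1b rose by 1.01 (SE 0.26, adjusted p = 0.0431), but it has close copies in Sirpb1a and Sirpb1c, between which reads may be shared. Cd300ld fell by 0.40 (SE 0.10, adjusted p = 0.0429).

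Fabp5 (NCBI gene 16592, chr3:10012585-10016610, plus strand) encodes a fatty acid binding protein that carries lipid inside the cell. It was at 1075, 1030, 1408 and 1348 FPKM in TAM-WT replicates 1 to 4. In TAM-KO it was at 837 FPKM in replicate 1, from the table of differential genes, and at 561, 676 and 887 FPKM in replicates 2 to 4. The groups did not overlap. Fabp5 fell by 0.88 on the log2 scale (SE 0.21, edgeR adjusted p = 0.0426). The adjusted p was 0.109 and 0.0919 without TAM-WT replicates 3 and 4, and 0.144 and 0.139 without TAM-KO replicates 2 and 3. Without TAM-KO replicate 1, on which Fabp5 was not tested, the fit was the same (log2 fold change -0.88). Only the adjustment over all genes changed, to an adjusted p of 0.0529. A processed pseudogene, Fabp5l2, could share reads with Fabp5.

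Lpl and Plin2 did not pass the test. Lpl (NCBI gene 16956, chr8:68880555-68906932, plus strand), which encodes the lipoprotein lipase that frees fatty acids from lipoproteins, was at 273 to 414 FPKM in TAM-WT and 260 to 309 FPKM in 3 TAM-KO libraries (log2 fold change -0.35, SE 0.17, edgeR adjusted p = 0.210). Plin2 (NCBI gene 11520, chr4:86626910-86670217, minus strand) encodes perilipin 2, a coat protein of lipid droplets. It was at 395, 458, 588 and 591 FPKM in TAM-WT and at 278, 312 and 467 FPKM in TAM-KO replicates 2 to 4. TAM-KO replicate 4 lay within the TAM-WT range and the others lay below it, and the log2 fold change was -0.64 (SE 0.25, adjusted p = 0.125). Without TAM-KO replicate 4, Plin2 was called (adjusted p = 0.0493).

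Of 20 genes of lipid droplets and lipolysis, 12 were tested, and edgeR called 2 lower and 0 higher, beside 5.24% and 4.58% of all tested genes. DESeq2 called 3 lower and 1 higher, and 3 and 2 passed at an unadjusted p under 0.05. The median log2 fold change was -0.03. Hilpda, a droplet protein that inhibits lipolysis, fell by 1.03 (SE 0.23, edgeR adjusted p = 0.0295). It was at 86.9, 102, 174 and 142 FPKM in TAM-WT and at 71.3, 54.7, 74.0 and 67.9 FPKM in TAM-KO, without overlap. Soat1, which esterifies cholesterol for storage, fell by 0.44 (SE 0.11, adjusted p = 0.0437). The other perilipin tested, Plin3, was at 64.1 FPKM in TAM-WT and 69.9 in TAM-KO (log2 fold change 0.02, adjusted p = 0.876), whereas Plin1, Plin4 and Plin5 had too few reads to test. Of 19 partners of lipoprotein lipase and genes of fatty acid transport, 13 were tested by edgeR, with a median of -0.09. Of these, 0 passed at an adjusted p of 0.05, beside the same shares of all tested genes (0 by DESeq2, and 2 at an unadjusted p under 0.05). The most abundant of them were Slc27a1, a fatty acid transporter, with a log2 fold change of -0.44 (adjusted p = 0.109), and Acsl5, an acyl-CoA synthetase, with 0.17 (adjusted p = 0.117). Acsl5 passed when libraries were scaled to total reads (adjusted p = 0.0412) and in limma on FPKM (0.0355).

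Lgals3 (NCBI gene 16854, chr14:47373860-47386167, plus strand) encodes galectin-3, a lectin that binds damaged lysosomes and is secreted by macrophages. It was at 2177, 2117, 2868 and 3008 FPKM in TAM-WT replicates 1 to 4. In TAM-KO it was at 1784 FPKM in replicate 1, from the table of differential genes, and at 1322, 1346 and 2007 FPKM in replicates 2 to 4. The groups did not overlap, but the log2 fold change of -0.81 (SE 0.23) did not pass (edgeR adjusted p = 0.0610). It passed with TAM-KO replicate 1 filled from that table (0.0488), and with TAM-WT replicate 2 (0.0295) or TAM-KO replicate 4 (0.0347) left out. Of 7 other galectin genes, 5 were tested by edgeR and 0 passed, beside 5.24% of all tested genes called lower and 4.58% higher. With DESeq2 1 passed, as did 1 at an unadjusted p under 0.05, and the median was 0.38. Lgals9 was at 138 to 169 FPKM in TAM-WT and 183 to 194 FPKM in 3 TAM-KO libraries (log2 fold change 0.19, adjusted p = 0.232), and Lgals3bp, a galectin-3 ligand, had a log2 fold change of 0.38 (adjusted p = 0.0969).

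Cd9 (NCBI gene 12527, chr6:125460266-125494760, minus strand) encodes a tetraspanin that organizes adhesion and receptor proteins in the cell membrane. It was at 177, 195, 269 and 217 FPKM in TAM-WT replicates 1 to 4. In TAM-KO it was at 135 FPKM in replicate 1, from the table of differential genes, and at 56.5, 54.3 and 105 FPKM in replicates 2 to 4. The groups did not overlap. On TAM-KO replicates 2 to 4, Cd9 fell by 1.68 on the log2 scale (SE 0.29, edgeR adjusted p = 0.0205), or 3.20-fold. With TAM-KO replicate 1 filled from that table, the log2 fold change of Cd9 was -1.41 (edgeR adjusted p = 0.0327). That of Spp1 was then -1.68. The call ended when TAM-WT replicate 3 (0.0528) or replicate 2 (0.0873) or 3 (0.0815) of TAM-KO was left out. Gm28809 and Gm26728 overlap Cd9 on the opposite strand, and a processed pseudogene, Cd9-ps, is annotated. Whether the counting used strand is not given in the sources used here.

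Cd63 (NCBI gene 12512, chr10:128896231-128912822, plus strand) encodes a tetraspanin of late endosomes and lysosomes that also sits on melanosomes. It was at 807, 865, 770 and 800 FPKM in TAM-WT replicates 1 to 4 and at 662, 667 and 735 FPKM in TAM-KO replicates 2 to 4, without overlap. Cd63 fell by 0.33 on the log2 scale (SE 0.08, edgeR adjusted p = 0.0452). This call was lost without TAM-WT replicates 1 (0.0620), 3 (0.120) and 4 (0.101) and without TAM-KO replicates 2 (0.184) and 3 (0.147). Without TAM-KO replicate 1, on which Cd63 was not tested, the fit was the same (log2 fold change -0.33). Only the adjustment over all genes changed, to an adjusted p of 0.0554. The call was also lost when libraries were scaled to total reads (0.0989). Cd63 has a transcribed pseudogene, Cd63-ps. Of 19 other tetraspanin genes, 17 were tested, and edgeR called 2 lower and 0 higher, beside 5.24% and 4.58% of all tested genes. DESeq2 called 2 lower and 3 higher, and 3 and 4 passed at an unadjusted p under 0.05. The median was 0.02. Cd53, a leukocyte tetraspanin, fell by 0.62 (SE 0.15, adjusted p = 0.0415), and Tspan5 fell by 0.57 (SE 0.13, adjusted p = 0.0295). Cd81, a close relative of Cd9, was at 118 to 173 FPKM in TAM-WT and 164 to 182 FPKM in 3 TAM-KO libraries (log2 fold change 0.10, adjusted p = 0.592).

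Gpnmb (NCBI gene 93695, chr6:49036518-49058182, plus strand) encodes a transmembrane glycoprotein of lysosomes and melanosomes. It was the one gene of the 10 with a positive fold change, at 494, 803, 663 and 635 FPKM in TAM-WT and 708, 813, 708 and 764 FPKM in TAM-KO. The TAM-KO libraries were close together and overlapped with TAM-WT replicate 2, and the log2 fold change was 0.10 (SE 0.14, edgeR adjusted p = 0.679). Without TAM-WT replicate 1 it was -0.02. Gpnmb is expressed by pigment cells as well as macrophages, and the summed FPKM of 7 melanoma markers was 2647, 4411, 2009 and 1958 in TAM-WT and 4514, 5098, 4771 and 3820 in TAM-KO. TAM-WT replicate 2 was thus the TAM-WT library highest in melanoma RNA and in Gpnmb. TAM-WT replicate 1, with the next highest sum in TAM-WT (2647), had the lowest Gpnmb of all libraries (494 FPKM). Within TAM-KO, replicate 2 was highest in both, but replicate 4 had the lowest sum (3820) and more Gpnmb (764 FPKM) than replicates 1 and 3. The part of melanoma RNA in the level of Gpnmb was not tested.

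Of 11 genes that encode regulators of the program, 10 were tested, and edgeR called 1 lower and 0 higher, beside 5.24% and 4.58% of all tested genes. DESeq2 called 2 lower and 2 higher, and 3 and 2 passed at an unadjusted p under 0.05. The median log2 fold change was -0.12. Pparg, the lipid-sensing nuclear receptor that drives Fabp4 and Plin2 in macrophages, fell by 0.60 (SE 0.11, edgeR adjusted p = 0.0201). It was at 27.4, 24.0, 29.7 and 31.8 FPKM in TAM-WT and at 19.6, 19.6, 21.7 and 18.8 FPKM in TAM-KO, without overlap. Leaving out replicate 3 of TAM-WT (0.0609), or replicate 2 (0.0804) or 3 (0.0588) of TAM-KO, ended the call. Nr1h3, the liver X receptor alpha, was at 17.5 FPKM in TAM-WT and 28.2 in TAM-KO (log2 fold change 0.58, adjusted p = 0.0796). Mitf, which regulates lysosomal genes in macrophages and pigment genes in melanocytes, was at 45.3 to 73.1 FPKM in TAM-WT and 79.6 to 95.5 in TAM-KO (log2 fold change 0.48, adjusted p = 0.0613). Within TAM-WT, Mitf was highest in replicate 2, the TAM-WT library with the highest sum of melanoma markers. Within TAM-KO, replicate 2 had the highest sum (5098 FPKM) but the lowest Mitf (79.6 FPKM). The part of melanoma RNA in Mitf was not tested.

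Among 24 other genes described in lipid-associated macrophages, all tested, edgeR called 7 lower and 0 higher, 7 of 24 beside 5.24% of all tested genes. DESeq2 called 17 lower and 0 higher, beside 1172 lower (9.44%) and 1081 higher among all 12412 tested genes. At an unadjusted p under 0.05 there were 17 and 2. Their median log2 fold change was -0.58, and 19 were negative. Fabp4, the adipocyte-type fatty acid binding protein, fell by 1.66 (SE 0.28, edgeR adjusted p = 0.0194), from 158 to 255 FPKM in TAM-WT to 50.4 to 91.8 in TAM-KO. Ccl6, a chemokine, fell by 1.27 (SE 0.29, adjusted p = 0.0305). The lysosomal protease gene Ctsd fell by 0.90 (SE 0.21, adjusted p = 0.0402), and Lipa, the lysosomal acid lipase, fell by 0.55 (SE 0.11, adjusted p = 0.0255). Timp2, an inhibitor of metalloproteases, fell by 0.72 and Lgals1, galectin-1, by 0.50, with adjusted p of 0.0272 and 0.0305.

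Apoe, the lipoprotein ligand of TREM2, had the most negative fold change of the list (-2.55, SE 0.57, edgeR adjusted p = 0.0339), and 1 TAM-WT library stood with TAM-KO. It was at 3175, 2886, 3314 and 497 FPKM in TAM-WT replicates 1 to 4, and at 435 to 454 FPKM in all 4 TAM-KO libraries, with replicate 1 from the table of differential genes. TAM-WT replicate 4 was also the lowest TAM-WT library for Trem2, but it had the highest Lgals3 and Plin2 of all libraries. Apoe was called without TAM-WT replicate 4, and not without TAM-WT replicate 1 (0.0505) or 3 (0.0904), nor with any of TAM-KO replicates 2 (0.130), 3 (0.118) or 4 (0.0659) left out. Neither Fth1, the ferritin heavy chain (log2 fold change -0.60, adjusted p = 0.0899), nor Lyz2, lysozyme (-0.70, adjusted p = 0.0548), passed, though both are very abundant.

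**Figure D3:**
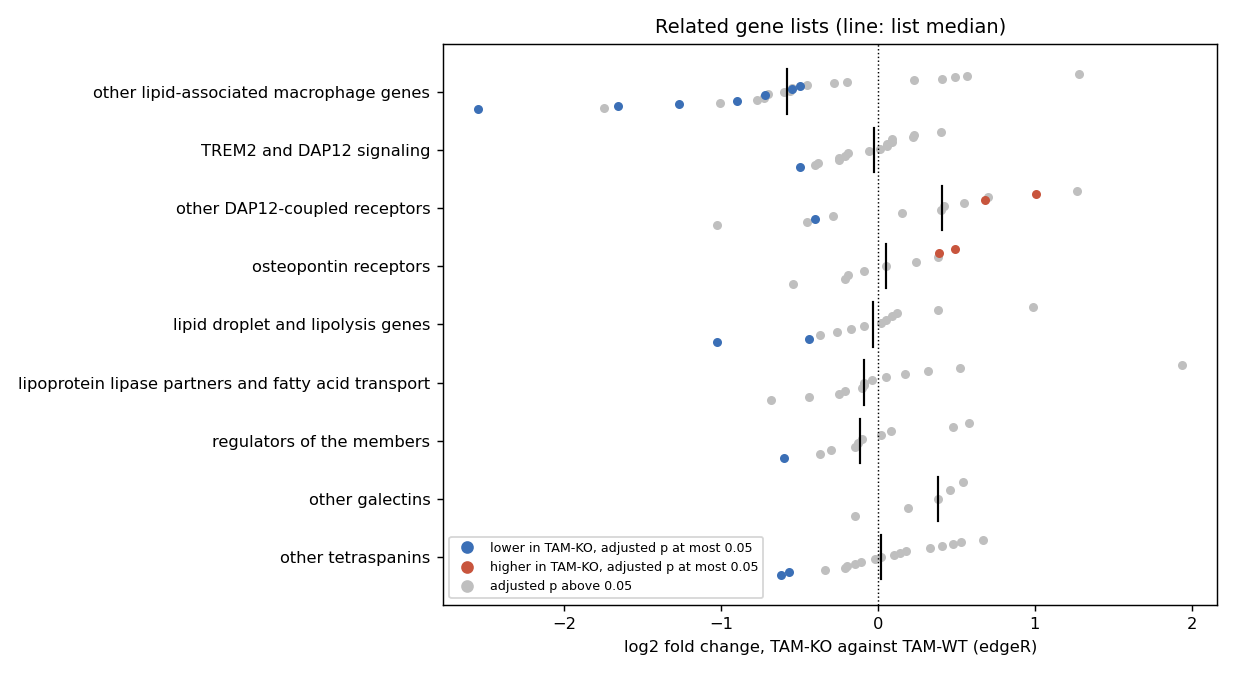
Log2 fold change of TAM-KO against TAM-WT for each tested gene of 9 related lists, blue where called lower, red where called higher and gray otherwise, with the list median as a black line. The 24 other lipid-associated macrophage genes have 7 blue points and a median of -0.58, while the medians of 6 other lists lie between -0.12 and 0.05.

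In all, 118 of 138 genes of the 9 related lists were tested, of which 14 fell and 4 rose, beside 5.24% and 4.58% of all tested genes. Of the 14 that fell, 7 were in the list of other lipid-associated macrophage genes. The lists were chosen with earlier results of these data known, so that these counts are a description. Without TAM-WT replicate 3 the number called was 1, without TAM-KO replicate 2 or 3 it was 0, without TAM-WT replicate 4 it was 8, and without TAM-KO replicate 1 it was 10. Without TAM-WT replicate 2 it was 41, and each of the 18 passed again. Of the 18, Treml4 alone passed without TAM-WT replicate 3.

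Genes whose log2 CPM followed that of Spp1 most closely across the libraries were Mcfd2 (Pearson r = 0.997 over 8 libraries), Cd14 (0.996 over 7), Atp6v0c (0.990 over 7), Klf4 (0.989 over 7) and Abhd17b (0.989 over 8). These are descriptions over few libraries that share their depth and the difference between the groups. Of the 10 genes, Cd9 was the nearest to Spp1, at place 9 of 10945 genes (r = 0.987 over 7), followed by Fabp5 (0.974) and Lgals3 (0.967). Trem2 stood at place 903 (0.873 over 8), and Gpnmb did not follow Spp1 (-0.04). For Trem2 the nearest were Clec10a (0.986 over 7), Cbr1 (0.979 over 7), St6galnac6 (0.972 over 8), Sptssa (0.967 over 7) and Idh1 (0.967 over 7). Among the 10 genes, Cd9 was again the nearest (0.915), then Cd63 (0.892) and Spp1 (0.873).

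Markers of macrophages and of other cell types were counted in the same way, beside 5.24% of all tested genes called lower and 4.58% higher. Of 9 macrophage markers 0 were called by edgeR (3 by DESeq2, and 3 at an unadjusted p under 0.05), and their summed FPKM was 7124 to 8902 in TAM-WT and 7977 to 8644 in 3 TAM-KO libraries, with C1qa and C1qc the most abundant. Of 7 melanoma markers 1 was called higher (Sox10, log2 fold change 0.76, adjusted p = 0.0295), 5 by DESeq2 and 6 at an unadjusted p under 0.05, and all 7 fold changes were positive, with a median of 0.66. Pmel (0.59) and Dct (0.49), the most abundant of them, did not pass. The most abundant monocyte markers, Plac8 (log2 fold change 1.41, edgeR adjusted p = 0.0123) and Ly6c2 (1.79, adjusted p = 0.0441), rose, and neither overlapped between the groups. Of the others, Chil3 (0.82, adjusted p = 0.145), Ccr2 (-0.05, adjusted p = 0.917) and Vcan (-0.38, adjusted p = 0.426) did not pass.

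**Figure D4:**
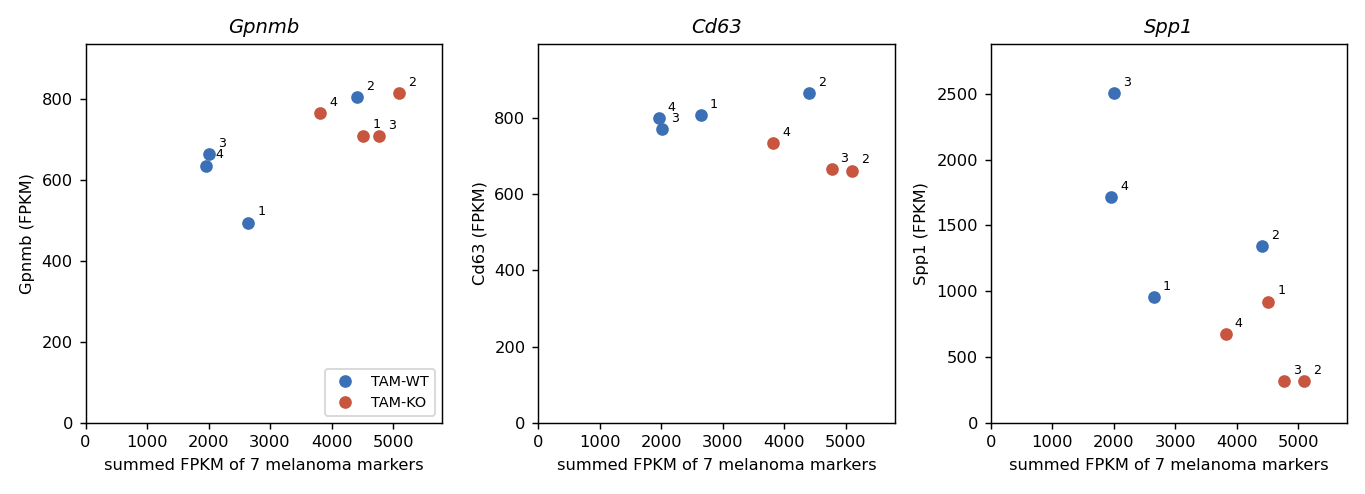
FPKM of Gpnmb, Cd63 and Spp1 in each library against the summed FPKM of 7 melanoma markers, blue for TAM-WT and red for TAM-KO, with the replicate number beside each point (Cd63 has no point for TAM-KO replicate 1). TAM-WT replicate 2 lies at a sum of 4411, within the 3820 to 5098 of TAM-KO, and the other 3 TAM-WT libraries lie at 1958 to 2647.

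T cell markers, led by Cd3g and Cd8b1, summed to 49.6, 40.3 and 18.5 FPKM in TAM-KO replicates 2 to 4, to 16.9 FPKM in TAM-WT replicate 1, and to at most 2.88 FPKM in the other TAM-WT libraries. Of 7 tested, 0 were called by edgeR, 2 were called higher by DESeq2, and 6 were higher at an unadjusted p under 0.05. Of the libraries with a sum, TAM-KO replicates 2 and 3 had the most T cell RNA and were lowest in Spp1, Trem2, Fabp5, Lgals3 and Cd9. TAM-WT replicate 1 was the lowest TAM-WT library for Spp1, Cd9 and Plin2, while replicate 2 was the lowest for Fabp5 and Lgals3. TAM-KO replicate 1 has no sum, as it lacks Cd4. Its Cd3g (8.49 FPKM) and Cd8b1 (5.86 FPKM), from the table of differential genes, lay above TAM-KO replicate 4 (4.75 and 3.35 FPKM). Yet its Spp1, Trem2 and Cd9 were higher than in replicate 4, and its Fabp5 and Lgals3 lower. Of 7 NK cell markers, led by Gzmb and Klrk1, 4 were tested and 1 rose (Eomes), and their sum was 0.770 to 12.7 FPKM in TAM-WT and 10.9 to 40.6 FPKM in 3 TAM-KO libraries. The neutrophil sum was 47.2 to 74.2 FPKM in TAM-WT and 60.1 to 214 FPKM in TAM-KO, highest in replicate 1, and 1 of 5 tested rose. This was S100a8, at 73.5 FPKM in TAM-KO replicate 1 and 9.13 to 15.8 FPKM in the other TAM-KO libraries, while the more abundant Csf3r (log2 fold change 0.58, adjusted p = 0.0737) and Mmp8 (-1.22, adjusted p = 0.0603) did not pass. Dendritic cell markers, led by Ccr7 and Zbtb46, summed to at most 13.1 FPKM, and 1 of 7 rose (Xcr1). B cell (Cd79b, Cd79a), fibroblast (Col1a1, Col1a2) and endothelial (Pecam1, Kdr) markers summed to at most 11.3 FPKM with 0 called by edgeR (1 endothelial gene by DESeq2, and 1 B cell and 1 endothelial gene at an unadjusted p under 0.05), and adipocyte markers (Retn, Cidec) to at most 0.120 FPKM with 0 tested. The dendritic cell, B cell, fibroblast, endothelial and adipocyte sums leave out TAM-KO replicate 1, where Retn alone was at 0.18 FPKM. The part of these cells in the results was not tested.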

How the data were processed

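Bulk RNA-Seq was made by the authors from TAMs of WT (4 libraries) and Colec11-/- (4 libraries) mice, grouped by the genotype in the labels. The submitters' processing notes name HISAT2 2.0.4, Bowtie2 2.2.5, RSEM 1.2.12 and GRCm38.p6. The expected counts and the FPKM of each gene were deposited by the authors as RSEM gave them, the counts without normalization and the FPKM per length and library. The deposited table of the comparison also holds the authors' fold changes, p-values and q-values, which were not used, and their TPM were not used. The sources used here do not name the annotation or say whether counting used strand.

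The table of TAM-KO replicate 1 lacks 5311 of 21051 genes, 1 joined line and 629 values that belong to other genes were dropped, and 12572 genes had a value in all 8 libraries. The table of differential genes gave its value for 1188 genes, and of 61560 values found in both kinds of table, 61560 were equal within rounding.

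The test, on expected counts rounded to integers, was that of edgeR 4.0.16 in R 4.3.3 (filterByExpr, TMM, glmQLFit, glmQLFTest) and Benjamini-Hochberg adjustment over 12412 genes. Genes of all 8 libraries were fitted on 8, the others on 7. The SE is the fold change over the square root of F, and it carries the spread between libraries. The study gives 4 mice per group for these data, as many as there are libraries. Calls had an adjusted p of at most 0.05. Alternatives were DESeq2 1.42.0 and its size factors, limma 3.58.1 on log2(FPKM + 1) and log2(FPKM + 0.1), other filters, a replicate block, a threshold of 0.01 and each library left out. Filling TAM-KO replicate 1, scaling to total reads and ratios to Tyrobp (scipy 1.17.1) were added after the data were seen. The procedure was tested on simulated data. The members and lists were chosen with earlier results of these data known.

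The text names all 10 genes, every called gene of a related list (the 2 most abundant tested genes of a list with none), the 2 most abundant of each marker list, and for Spp1 and Trem2 the 5 genes of mean CPM of at least 5 (log2 of CPM plus 0.5) with the highest r. Beyond this rule, Cd44, Syk, Plin3, Cd81, Nr1h3, Mitf, Fth1, Lyz2, Sox10, S100a8, Eomes, Xcr1, Chil3, Ccr2 and Vcan were named after their values were seen. Positions and promoters are from RefSeq GRCm38.p6, matched by NCBI gene. The count and sum of the monocyte list are not reported here.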

Additional observations from a re-analysis of the deposited data

Results flagged for a closer look

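Within the groups of 4 libraries, the FPKM of the 10 genes and of the named related genes were searched for a library far from the other 3 (Dixon's test at the 95% level). Of 56 groups with 4 values, 2 had such a library, where chance gives about 1 in 20. Both were TAM-WT replicate 4. Its Trem2, at 220 FPKM, lay below the other 3 TAM-WT libraries, with a gap of 0.839 of the range of the group. Its Apoe, at 497 FPKM, also lay far below the others, with a gap of 0.848 of the range. The same library was not low in Spp1 (1718 FPKM) or Fabp5 (1348 FPKM), and it held the highest Lgals3 of all libraries (3008 FPKM). Leaving it out moved the log2 fold change of Trem2 from -0.76 to -0.87 (edgeR adjusted p = 0.0345).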

How the results depend on the processing

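The 5 genes called became 0 at an adjusted p of at most 0.01, as did the 18 related genes. With 1 library left out, between 0 and 7 of the 10 genes and between 0 and 41 of the related genes were called. DESeq2 called 41 related genes. The direction of each of the 10 genes was that of the main test under every alternative run, except for Gpnmb, which ranged from -0.02 (without TAM-WT replicate 1) to 0.19 with 1 library left out. Of the 8 fits that leave out a library, edgeR called Cd9 in 5, Trem2 in 4, Spp1 and Fabp5 in 3, and Cd63 in 2. Cd9, Fabp5 and Cd63 were not tested on TAM-KO replicate 1, so leaving it out changed only their adjustment. Of 9 other alternatives, Cd9, Trem2 and Fabp5 were called in 9, Spp1 in 8 and Cd63 in 4, and Lgals3 in 4. With a replicate block, the number called was 5 of the 10 and 17 of the related genes. Spp1 (adjusted p = 0.0622) and Cd63 (0.0827) were lost and Lgals3 (0.0365) and Plin2 (0.0401) gained. Of the 18 related genes, 6 were lost, namely Apoe (0.0818), Ctsd (0.0660), Ccl6 (0.0626), Cd300ld (0.0698), Sirpb1b (0.0912) and Itgav (0.0577). No pairing by the same number was seen, as the correlations of the deviations were -0.374, 0.039, -0.255 and 0.283. Those between libraries of different number ranged from -0.355 to 0.424, so these values cannot exclude a pairing. The cause was not tested for any of these changes.

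Scaling to total reads moved the median of all genes to 0.089 and limma on log2(FPKM + 0.1) to 0.106, so list medians near 0 have no firm sign. The missing genes of TAM-KO replicate 1 leave 6 of the 10 tests with 3 TAM-KO libraries. Sorted cells with melanoma RNA in every library limit what the levels of Gpnmb, Cd63 and Mitf say of macrophages.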
